A study of Mus musculus with 15 samples.

Results

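The genes described here are 10 mouse genes whose products signal from a tumour cell to macrophages and T cells: Cd24a, Cd200, Cd47, Mfge8, Cd274, Pdcd1lg2, Cd80, Cd86, Lgals9 and Tgfb1. They were chosen by name, and all 10 were found among the 32434 entries of the expression table, each under a single entry. The names were picked with earlier values of the same libraries in view, among them the low levels of Cd24a, Cd200, Mfge8 and Tgfb1 in IL6Myc-1, so the levels of the 10 genes are described below without a test. The material was RNA of 5 established lines of mouse myeloma cells, numbered IL6Myc-1 to IL6Myc-5 and derived from mice of the IL6Myc genotype, an immunocompetent model of the plasma cell cancer multiple myeloma. Each line gave 3 technical replicate libraries, 15 in all. The labels name no treatment, and every line shared the IL6Myc genotype, whose alleles they do not spell out. No untransformed plasma cells were analysed here, so the lines are set against each other. Each line was a single biological unit, and p-values and SDs measured the spread between technical replicates only.

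Macrophages decide whether to engulf a cell by weighing signals on its surface. CD47 binds SIRP alpha and CD24 binds the inhibitory receptor Siglec-10 in humans (Siglec-G in mice), both restraining phagocytosis, and CD200 quietens myeloid cells through the CD200 receptor. Mfge8, also called lactadherin, does the opposite: it is secreted, binds phosphatidylserine on dying cells and bridges them to integrins of the engulfing cell. T cells are restrained by PD-L1 (Cd274) and PD-L2 (Pdcd1lg2) through PD-1, are costimulated through CD28 by CD80 and CD86, which also bind the inhibitory receptor CTLA-4, and are acted on by galectin-9 (Lgals9) and by the secreted cytokine TGF beta 1 (Tgfb1). Myeloma cells reside in bone marrow among macrophages and T cells that carry these receptors.

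Between 19068543 and 41165599 estimated counts were obtained per library. The unit of level used below is CPM, counts rescaled to a common library total, on library sizes scaled by TMM, which is a correction for differences in library composition. Relative to plain library totals, TMM raised the levels of IL6Myc-2 by 0.23 on the log2 scale against the average library. Of the 10 plasma cell marker genes (Sdc1, Xbp1, Irf4, Prdm1, Igkc, Igha, Jchain, Mzb1, Tnfrsf17 and Slamf7), all were measured above 1 CPM in at least 3 libraries, and their summed level lay between 45600 and 113100 CPM in every library. Some of the 10 ligand genes are also made by macrophages and dendritic cells, and the levels of markers of those cells were uneven. Lyz2, Cd14, Adgre1, Fcgr1 and Itgax stayed at or below 0.257 CPM in each line, and Csf1r at or below 0.56 CPM. The dendritic cell genes Flt3 and Zbtb46 were measured, at 4.69 to 10.3 CPM and 1.78 to 5.43 CPM. Of the macrophage list of 13 genes 5 were tested, and S100a8 had 0 counts in all libraries. Its summed level was 716 to 775 CPM in IL6Myc-4 against 142 to 310.2 CPM in the libraries of the other lines, and was made up mostly of C1qb and Cd68. In such bulk libraries fewer cells of a type and less RNA per cell cannot be told apart.

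The "do not eat me" signal Cd47 was present at a similar level in all lines. Its level was 128, 129 and 132 CPM in the 3 libraries of IL6Myc-4, 120.0, 116 and 119.5 CPM in IL6Myc-3, and 96.9, 100.1 and 99.7 CPM in IL6Myc-1. It was 88.1, 88.1 and 91.7 CPM in IL6Myc-5, and 81.8, 82.6 and 78.8 CPM in IL6Myc-2. The libraries of neighbouring lines did not overlap anywhere along this order, although the highest line, IL6Myc-4 at 129 ± 2.02 CPM (SD, n = 3), was only 1.6-fold above the lowest, IL6Myc-2 at 81.05 ± 2.04 CPM (SD, n = 3). The order of the lines was the same on plain library totals. Cd47 thus had the smallest spread over the lines of the 8 ligand genes that passed the filter on low values, together with a low technical spread (biological coefficient of variation 0.03 in edgeR).

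Cd24a, the gene of the glycosylphosphatidylinositol-anchored glycoprotein CD24, was far lower in IL6Myc-1 than in the other lines. It stood at 2.84, 3.52 and 2.21 CPM in IL6Myc-1, against 214, 218 and 214 CPM in IL6Myc-5, then 145.7, 147.5 and 133 CPM in IL6Myc-3, and 133, 136.5 and 133 CPM in IL6Myc-2. IL6Myc-4 lay between these extremes at 45.3, 46.7 and 43.4 CPM. The 3 libraries of IL6Myc-1 were far below all 12 others, and IL6Myc-4, the nearest line, was 15.8-fold higher than IL6Myc-1. Among the remaining lines, IL6Myc-3 and IL6Myc-2 overlapped (not on plain library totals), and IL6Myc-5 was 1.51-fold above IL6Myc-3 without overlap. Cd24a has processed copies elsewhere in the mouse genome, and reads shared with them could not be told apart in gene counts.

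Cd200 was likewise lowest in IL6Myc-1, with much wider scatter between libraries elsewhere. It was at 0.0462, 0.153 and 0.048 CPM in IL6Myc-1, which are counts of 2, 4 and 1. It was at 10.2, 15.03 and 11.7 CPM in IL6Myc-5, then 9.5, 10.1 and 13.1 CPM in IL6Myc-3, 8.69, 12.4 and 6.13 CPM in IL6Myc-2 and 6.68, 4.03 and 6.45 CPM in IL6Myc-4. Only IL6Myc-1 was separate from all other lines, and IL6Myc-4 was 69.4-fold above IL6Myc-1. The libraries of each other pair of neighbouring lines overlapped. Those of IL6Myc-4 lay below those of IL6Myc-3 and IL6Myc-5 without overlap, under every scaling tried. In IL6Myc-2 the counts of the 3 technical replicates were 182, 243 and 100, a coefficient of variation of 34.5%, and the fitted biological coefficient of variation of Cd200 was 0.202 against a median of 0.0639 over all genes tested. A full order of the 4 lines that express Cd200 is therefore not given.

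Mfge8 had 0 counts in the 3 libraries of IL6Myc-1, so its level there was below the 0.0332 CPM that 3 counts over the line would give, a limit that covers counting error only. Its level was 69.5, 69.7 and 69.5 CPM in IL6Myc-3, 42.5, 38.9 and 36.9 CPM in IL6Myc-2, 13.4, 11.4 and 12.1 CPM in IL6Myc-5, with 7.08, 6.12 and 6.22 CPM in IL6Myc-4. No libraries of neighbouring lines overlapped, so the bridging protein's transcript fell into 5 separate levels. IL6Myc-3 was 1.76-fold above IL6Myc-2, IL6Myc-2 was 3.21-fold above IL6Myc-5, and IL6Myc-5 was 1.9-fold above IL6Myc-4. IL6Myc-1 was at least 195-fold lower than IL6Myc-4 at that limit, and at least 2100-fold lower than IL6Myc-3. A listed 0 does not by itself show that the transcript is missing, and its cause was not tested. Jak1, a kinase gene used by nearly every cell, was listed at only 0.0512 to 0.517 CPM in these lines. Unlike Mfge8, Jak1 was low in every line, so it is not a direct parallel.

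**Figure D1:**
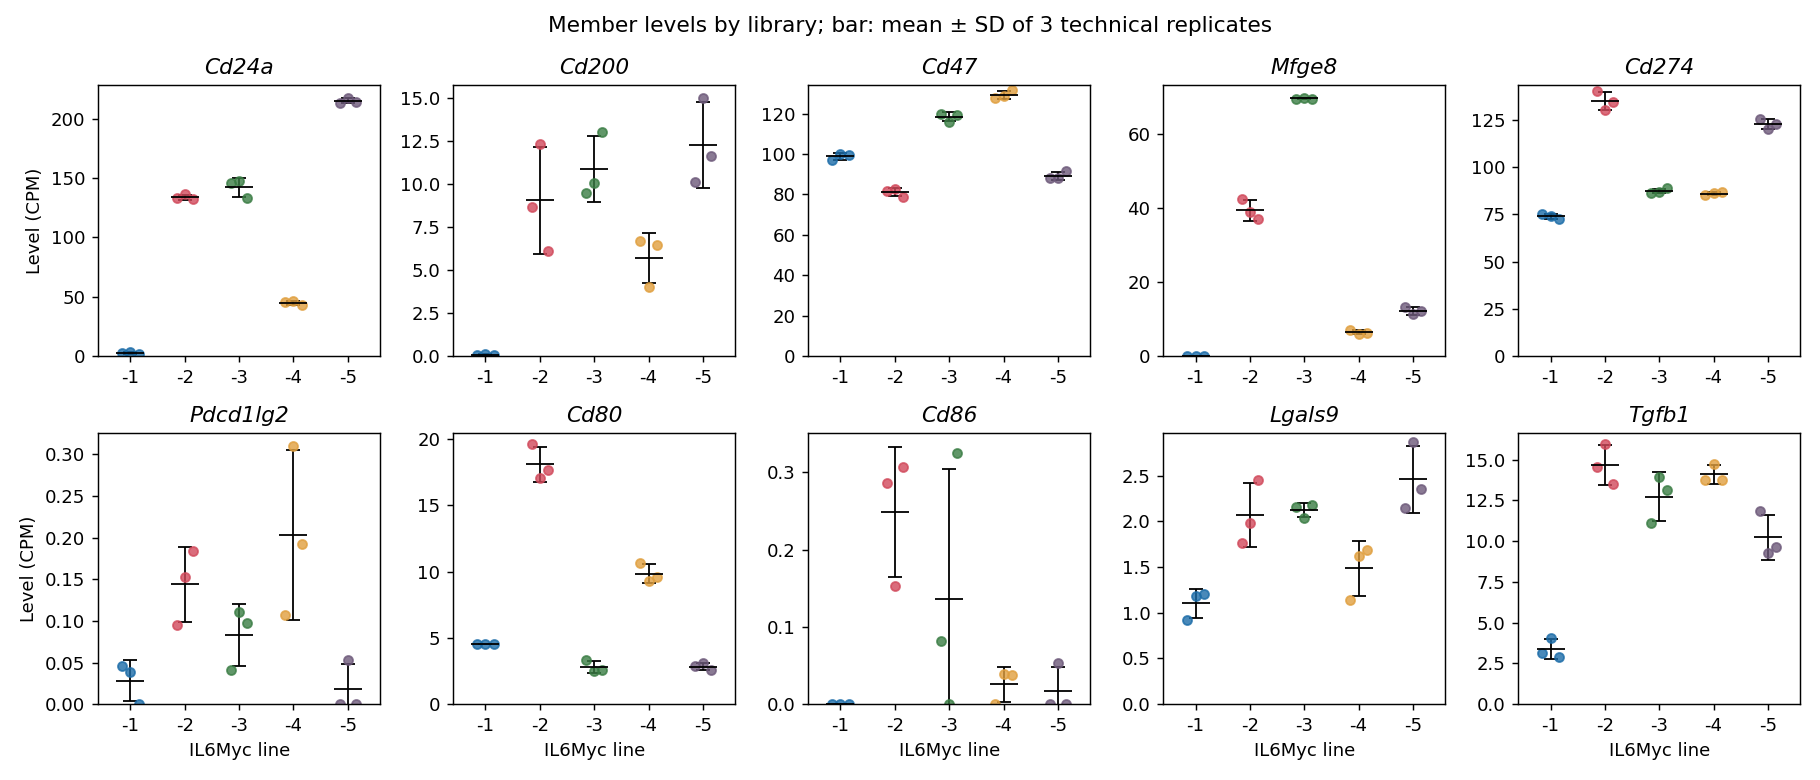
Level in CPM (y axis, linear, starting at 0 and scaled separately in each panel) of the 10 genes in the 5 IL6Myc lines (x axis). Points are single libraries and bars the mean ± SD of 3 technical replicates. Cd24a, Cd200, Mfge8 and Tgfb1 are lowest in IL6Myc-1, whereas Cd47 and Cd274 are above 70 CPM in every line.

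Promoter sequence was available for 8 of the 10 genes in RefSeq, as 300 bases from 250 before to 50 after the annotated start on build GRCm38.p6 (the submitters' processing notes name GRCm39), and not for Cd24a and Cd86. The promoters of Mfge8, Cd200 and Tgfb1, which were at least 3.03-fold lower in IL6Myc-1 than in any other line, are shown with that of Cd274, which was 1.16-fold below the next line there, to let their sequence features be compared. Each is 5′ to 3′ on the gene's strand, and capitals mark the GC box GGGCGG, a binding motif of Sp1-type factors, on either strand. Mfge8 lies at chr7:79149011-79149310 on the minus strand, Cd200 at chr16:45409004-45409303 on the minus strand, Tgfb1 at chr7:25686752-25687051 on the plus strand and Cd274 at chr19:29367188-29367487 on the plus strand.
Mfge8: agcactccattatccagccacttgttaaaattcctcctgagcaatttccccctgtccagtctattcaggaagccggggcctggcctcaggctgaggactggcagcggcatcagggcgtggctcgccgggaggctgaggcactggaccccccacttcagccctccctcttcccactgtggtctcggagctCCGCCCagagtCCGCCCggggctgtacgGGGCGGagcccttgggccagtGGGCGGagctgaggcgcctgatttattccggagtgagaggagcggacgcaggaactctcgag
Cd200: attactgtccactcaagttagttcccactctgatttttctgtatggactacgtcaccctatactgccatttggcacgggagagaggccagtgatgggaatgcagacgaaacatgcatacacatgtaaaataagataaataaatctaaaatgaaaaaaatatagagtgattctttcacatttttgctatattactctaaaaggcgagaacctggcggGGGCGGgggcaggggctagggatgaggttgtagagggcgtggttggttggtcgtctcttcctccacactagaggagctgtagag
Tgfb1: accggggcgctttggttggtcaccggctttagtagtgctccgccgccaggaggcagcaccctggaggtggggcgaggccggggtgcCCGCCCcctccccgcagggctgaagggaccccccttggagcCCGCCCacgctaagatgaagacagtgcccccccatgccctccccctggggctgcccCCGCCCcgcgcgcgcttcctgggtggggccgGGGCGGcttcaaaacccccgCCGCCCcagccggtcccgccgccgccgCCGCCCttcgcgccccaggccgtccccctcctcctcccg
Cd274: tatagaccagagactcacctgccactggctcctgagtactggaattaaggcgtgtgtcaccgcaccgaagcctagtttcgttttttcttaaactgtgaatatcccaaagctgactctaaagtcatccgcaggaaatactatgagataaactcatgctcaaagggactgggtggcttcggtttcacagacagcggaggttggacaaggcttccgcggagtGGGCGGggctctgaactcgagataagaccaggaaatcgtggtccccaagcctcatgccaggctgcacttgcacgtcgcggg
The GC box was found 4 times in the Mfge8 promoter, 6 times in that of Tgfb1, and once each in those of Cd200 and Cd274, and 46.2% of the 21262 promoters of protein-coding genes hold it at least once. The observed over expected ratio of CpG dinucleotides, the sites of DNA methylation, was 0.548 for Mfge8, 0.545 for Cd200, 0.694 for Tgfb1 and 0.722 for Cd274, against a median of 0.567 over all these promoters. The promoters of Mfge8 and Cd200 thus stood near the middle of all promoters, and the gene with a nearly even level, Cd47, had a ratio of 0.862. In contrast Cd80, Pdcd1lg2 and Lgals9 had low ratios of 0.164, 0.189 and 0.16. The E-box CACGTG bound by Myc was in none of the 8 promoters and in 7.84% of all promoters. An interferon response motif, GAAA repeated after a gap of 2 bases of any kind, was found in that of Lgals9, in 2 places, and in 3.35% of all promoters. The kappaB consensus was found in those of Tgfb1 and Pdcd1lg2, and in 9.25% of all. TATAAA was found in that of Cd80, and in 12.6% of all. These motifs were searched on both strands, and a match describes the letters of the window.

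PD-L1 was the T cell ligand with the highest level per transcript length in the lines. Cd274 stood at 140.0, 130.3 and 134.5 CPM in IL6Myc-2, 125.5, 120.3 and 122.5 CPM in IL6Myc-5, and 86.4, 86.9 and 88.7 CPM in IL6Myc-3. It was 85.2, 86.2 and 86.6 CPM in IL6Myc-4, and 75.2, 74.0 and 72.5 CPM in IL6Myc-1. IL6Myc-2 and IL6Myc-5 formed an upper pair that did not overlap with the other lines, IL6Myc-3 and IL6Myc-4 overlapped, and IL6Myc-1 was separate at the bottom. IL6Myc-2 was 1.83-fold above IL6Myc-1 and 1.1-fold above IL6Myc-5, and on plain library totals IL6Myc-5 had the higher mean of that pair and their libraries overlapped. An annotated antisense transcript overlaps Cd274, and how the counting treated strand is not stated.

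PD-L2 was hardly detected. Pdcd1lg2, which lies next to Cd274 on chromosome 19, had 35 counts over the 15 libraries. The counts were 3, 8 and 5 in IL6Myc-4, 2, 3 and 3 in IL6Myc-2, 1, 3 and 3 in IL6Myc-3, 2, 1 and 0 in IL6Myc-1, and 0, 1 and 0 in IL6Myc-5. Its level reached at most 0.31 CPM in a library, and at this depth the lines could not be ordered. It also overlaps an annotated antisense transcript. Per kilobase of the longest annotated coding transcript, Cd274 was at 20.4 to 37.3 CPM per kilobase in the 5 lines and Pdcd1lg2 at 0.0102 to 0.117 CPM per kilobase.

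The costimulatory ligands were likewise unequal. Cd80 was at 19.6, 17.0 and 17.7 CPM in IL6Myc-2, 10.7, 9.25 and 9.6 CPM in IL6Myc-4, and 4.57, 4.55 and 4.515 CPM in IL6Myc-1. It was at 2.87, 3.08 and 2.58 CPM in IL6Myc-5, with 3.34, 2.485 and 2.57 CPM in IL6Myc-3. IL6Myc-2, IL6Myc-4 and IL6Myc-1 formed separate steps, 1.84-fold and 2.16-fold apart, and IL6Myc-5 and IL6Myc-3 overlapped at the bottom, where their order turned on plain library totals. Cd86, the ligand that professional antigen presenting cells carry at rest, had 29 counts over the 15 libraries. Of these, 6, 3 and 5 were in IL6Myc-2, 2, 0 and 10 in IL6Myc-3, 0, 1 and 1 in IL6Myc-4, 0, 1 and 0 in IL6Myc-5, and 0 in IL6Myc-1. Each pair of neighbouring lines overlapped, and the largest value, 0.325 CPM, came from a single library of IL6Myc-3. Per kilobase, Cd80 was at 0.882 to 5.7 CPM per kilobase and Cd86 at no more than 0.0979 CPM per kilobase.

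**Figure D2:**
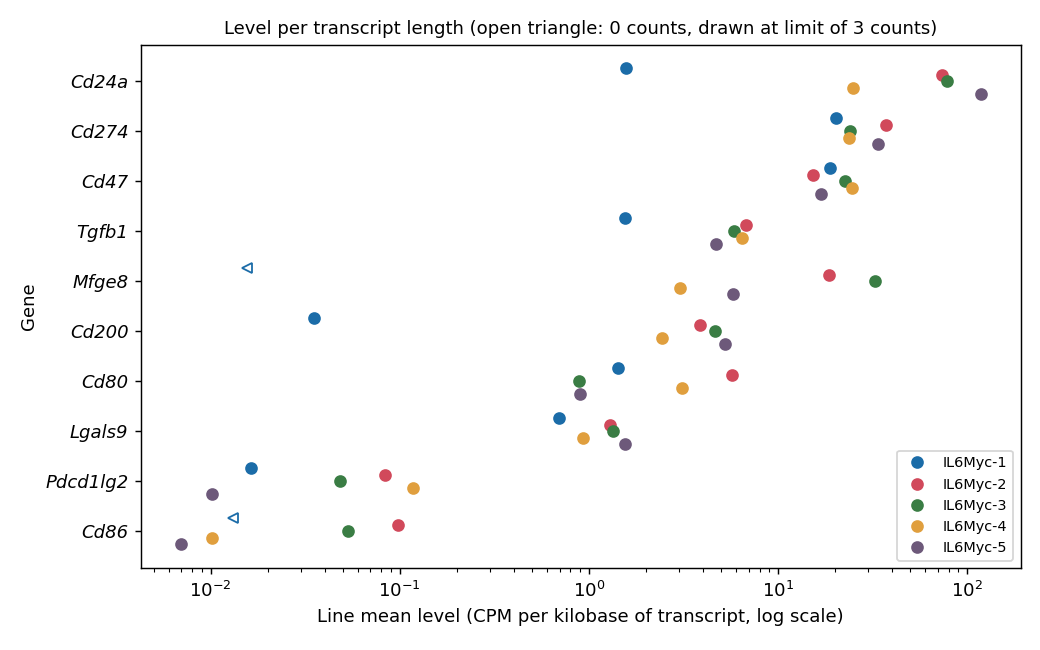
Line mean level per transcript length (x axis, CPM per kilobase of the longest annotated coding transcript, log scale) of the 10 genes (y axis, sorted by their median). Points are lines and open triangles mark 0 counts, drawn at the limit of 3 counts. Cd274 lies at 20.4 to 37.3 CPM per kilobase, while Pdcd1lg2 and Cd86 do not pass 0.117 CPM per kilobase in any line.

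Galectin-9 was low in all lines. Lgals9 stood at 2.15, 2.87 and 2.35 CPM in IL6Myc-5, then 2.16, 2.04 and 2.18 CPM in IL6Myc-3 and 1.77, 1.98 and 2.45 CPM in IL6Myc-2. It stood at 1.14, 1.625 and 1.69 CPM in IL6Myc-4 and 0.924, 1.19 and 1.2 CPM in IL6Myc-1. The lines fell into an upper group of IL6Myc-5, IL6Myc-3 and IL6Myc-2 and a lower group of IL6Myc-4 and IL6Myc-1, with no overlap between the groups and overlap within each. On plain library totals the groups met, since IL6Myc-2 (1.52 to 2.1 CPM) and IL6Myc-4 (1.22 to 1.79 CPM) then overlapped. IL6Myc-5 was 2.23-fold above IL6Myc-1, on counts of only 25 to 67 per library.

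Tgfb1, which encodes an immunosuppressive cytokine secreted in latent form, was low in IL6Myc-1 and differed less among the other lines. It was at 3.17, 4.09 and 2.88 CPM in IL6Myc-1, against 14.6, 15.97 and 13.5 CPM in IL6Myc-2, 13.8, 14.8 and 13.8 CPM in IL6Myc-4, 11.1, 13.95 and 13.2 CPM in IL6Myc-3 and 11.8, 9.24 and 9.63 CPM in IL6Myc-5. The libraries of IL6Myc-1 lay below all others, and IL6Myc-5, the nearest line, was 3.03-fold higher. The libraries of neighbouring lines among the other 4 overlapped, and on plain library totals IL6Myc-4 and not IL6Myc-2 was the highest, without overlap between the pair. IL6Myc-5 lay below IL6Myc-2 and IL6Myc-4 without overlap. On plain library totals it was still separate from IL6Myc-4 but overlapped with IL6Myc-2.

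Set side by side, Cd24a, Cd200, Mfge8 and Tgfb1 shared their lowest line, IL6Myc-1, under every scaling tried. Lgals9 and Cd274 were also lowest there, but by 1.35-fold and 1.16-fold below the next line. Over the 15 libraries, Pearson's r of log2(CPM + 1) was 0.98 between Cd24a and Cd200, 0.88 between Cd24a and Mfge8, and 0.84 between Cd24a and Tgfb1. With Cd24a it was also 0.88 for Lgals9 and 0.75 for Cd274. It was -0.16 between Cd24a and Cd47, and 0.01 between Cd24a and Cd80. Cd47 and Cd274, the ligands with the narrowest ranges, ran in opposite directions (r = -0.72). These coefficients describe 5 lines with 3 libraries each, so the points of a line share their source. Cd24a, Cd200, Mfge8 and Tgfb1 were named with their low levels in IL6Myc-1 in view. Nothing is therefore read from their shared lowest line or from the coefficients among them. Of the 8 ligand genes that passed the filter, 6 passed the call used here for genes that differ among lines, an edgeR adjusted p under 0.05 with a spread of 1 log2 unit or more over the line means, where 32.2% of the 11773 genes tested did. Since the genes were named with those values in view, nothing is read from that count. The exceptions were Cd47 and Cd274, and Pdcd1lg2 and Cd86 were not tested.

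**Figure D3:**
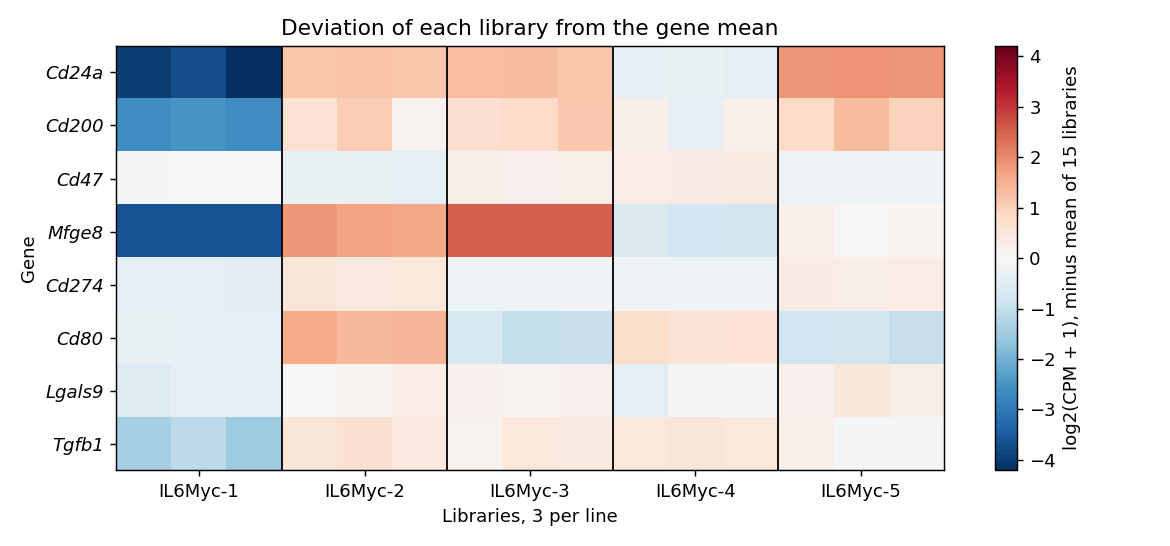
Deviation of each library (x axis, 3 per line) from the gene's mean over the 15 libraries, in log2(CPM + 1), for the 8 ligand genes that passed the filter (y axis). Blue is below and red above the mean. Cd24a, Cd200, Mfge8 and Tgfb1 are blue in the libraries of IL6Myc-1, while the rows of Cd47 and Cd274 stay pale.

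For each ligand gene with at least 5 CPM in a line, the genes with the most similar profile were searched among 9544 protein-coding genes. The phosphatase gene Ptprj came out on top both for Cd24a (r = 0.994) and for Cd200 (r = 0.981, each over 15 libraries of 5 lines). Ptprj, which encodes the receptor tyrosine phosphatase CD148, was at 0.0231 CPM in IL6Myc-1, against 9.09 CPM in IL6Myc-2, 7.99 CPM in IL6Myc-3, 4.65 CPM in IL6Myc-4 and 12.3 CPM in IL6Myc-5. The next for Cd24a were Nckap1, of the WAVE actin complex (r = 0.99), and Srpr, of the signal recognition particle receptor (r = 0.987). Srpr spanned a narrow range, at 365 CPM in IL6Myc-1 against 437 to 488 CPM in the other lines. For Cd200 they were Chmp4b (r = 0.979), of the ESCRT-III membrane scission machinery, and Lysmd2 (r = 0.978).

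The genes most like Cd274 were Prdx4 (r = 0.991), an endoplasmic reticulum peroxiredoxin, Herpud1 (r = 0.988), of the degradation machinery of that organelle, and Nbas (r = 0.983). Prdx4 reached 417 CPM in IL6Myc-2 and, in IL6Myc-5, 390.2 CPM, against 202 to 252 CPM in the other lines. Cd47 was most like Ckap4 (r = 0.983), a membrane protein of the endoplasmic reticulum, Stt3b (r = 0.98), a catalytic subunit of the oligosaccharyltransferase, and Jrk (r = 0.98). Cd80 was most like Fstl3 (r = 0.974), which encodes a secreted binder of activins, Ddr1 (r = 0.966), a collagen receptor, and Rab11fip4 (r = 0.965). Fstl3 reached 17.9 CPM in IL6Myc-2 and, in IL6Myc-4, 10.1 CPM, against 1.12 to 2.26 CPM in the other lines. Tgfb1 was most like Slc38a10 (r = 0.978), an amino acid transporter gene, Mgat2 (r = 0.978), a Golgi enzyme of N-glycan synthesis, and Scarb2 (r = 0.973), a lysosomal membrane protein. Mfge8 was most like Abhd2 (r = 0.984), Foxred2 (r = 0.977) and Clcn4 (r = 0.975).

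Abhd2, a lipid hydrolase gene, is also the next protein-coding gene to Mfge8 on chromosome 7. It was at 1.53 CPM in IL6Myc-1, against 27.4 CPM in IL6Myc-2, 29.4 CPM in IL6Myc-3, 10.9 CPM in IL6Myc-4 and 14.2 CPM in IL6Myc-5, in the same order of lines as Mfge8. It was lower in IL6Myc-1 than in the mean of the other 4 lines on the log2 scale (log2 difference -3.59). Abhd2 had been picked for its likeness to Mfge8, which had 0 counts in IL6Myc-1, so no test is given. Of the 3 protein-coding neighbours on each side of Mfge8, Isg20, an interferon-induced exonuclease gene, was also lower in IL6Myc-1, at 35.6 CPM against 74.9 to 134 CPM (a log2 difference of -1.55 with an edgeR adjusted p = 8.77e-15). Fanci, of the Fanconi anaemia DNA repair pathway, was at 23.2 CPM in IL6Myc-1 against 19.3 to 35.5 CPM (a log2 difference of -0.11 with an edgeR adjusted p = 0.0526), and Acan, Hapln3 and Rlbp1 were at or below 0.165 CPM in every line. This neighbourhood, listed by gene order, was looked up after the values of Mfge8 were known.

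**Figure D4:**
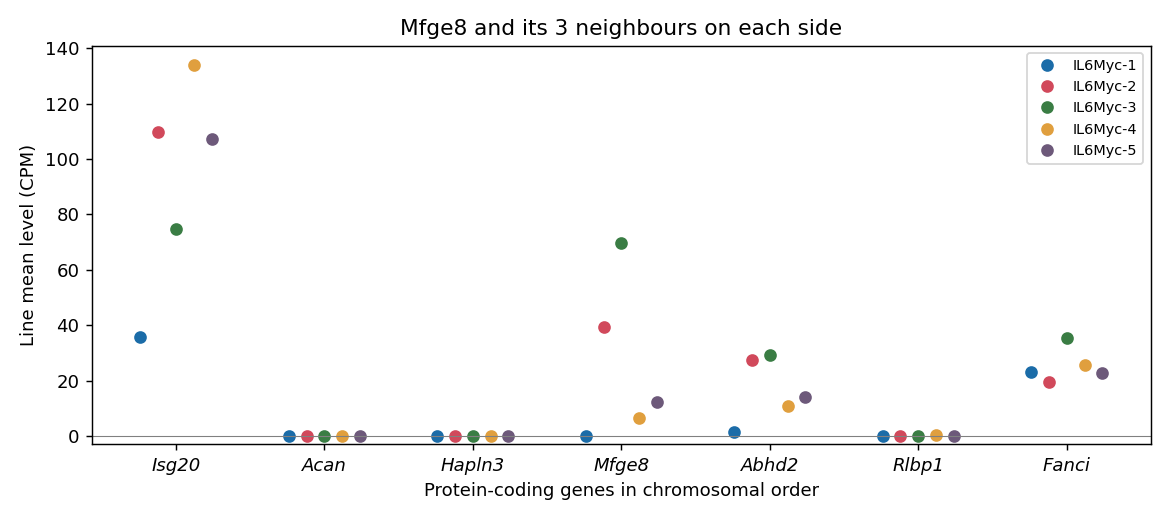
Line mean level (y axis, CPM) of Mfge8 and the 3 protein-coding genes on each side of it in chromosomal order (x axis, not to scale). Points are lines. Mfge8 and Abhd2 are highest in IL6Myc-3 and lowest in IL6Myc-1, while Fanci is at 19.3 to 35.5 CPM in all lines.

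Around Cd24a the pattern differed. Its measured neighbours Pdss2, Bend3, Mtres1, Qrsl1 and Rtn4ip1 were at 10.2 to 22.2 CPM in IL6Myc-1 and did not differ by 1 log2 unit between any lines. The measured neighbours of Tgfb1 (Exosc5, B9d2, Ccdc97 and Hnrnpul1) were lower in IL6Myc-1 by at most 0.4 on the log2 scale and were not called. Near Cd80 on chromosome 16, the phospholipase gene Pla1a was at 9.58 CPM in IL6Myc-2, against 0.152 to 0.217 CPM in the other lines, and Popdc2 at 6.38 CPM in IL6Myc-2, against 1.36 to 2.15 CPM. The gene directly beside Cd80, Adprh, was at 32.3 to 43.8 CPM in all lines, and Timmdc1 on its other side at 33.7 to 40.5 CPM.

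The receptors, regulators and related ligands around these genes were followed in 7 lists of 93 genes in all. Of these, 55 were tested and 33 (60.0%) differed among the lines, where 32.2% of all genes tested did. Their median log2 difference between the highest and lowest line was 1.41, where that of all genes tested was 0.70. The lists were chosen with earlier results of these libraries known, so nothing is read from these shares. Of the called genes 3 (Tnfsf4, Cd244a and Eng) passed the filter on low values only through the line in which they were highest, and had to differ. The remaining 22 tested genes were not called, and 38 genes were below the filter, 6 of them with 0 counts. Against the mean of the other 4 lines on the log2 scale, 8 were called lower and 4 higher in IL6Myc-1, where 8.11% and 4.39% of all genes were. In IL6Myc-2, 10 were called higher and 4 lower (8.6% and 4.08% of all genes). In IL6Myc-3 the counts were 5 higher and 3 lower (4.6% and 3.05%), in IL6Myc-4 13 higher and 3 lower (5.28% and 4.37%), and in IL6Myc-5 5 higher and 5 lower (4.8% and 3.19%).

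Of the 14 macrophage receptor and engulfment genes 5 were tested and 3 differed (60.0%, where 32.2% of all genes tested did). The CD47 receptor gene Sirpa, usually a myeloid gene, was at 23.6 ± 3.37 CPM in IL6Myc-4 and 22.6 ± 2.23 CPM in IL6Myc-3, at 3.12 ± 0.29 CPM in IL6Myc-2, and in IL6Myc-5 at 3.03 ± 0.421 CPM (SD, n = 3 each; edgeR F-test adjusted p = 1.38e-14). In IL6Myc-1 it had 1 count over the 3 libraries and was called lower (edgeR adjusted p = 3.48e-13). Lyz2, Cd14 and Fcgr1 stayed at or below 0.139 CPM in every line. The summed macrophage markers were highest in IL6Myc-4, at 716 to 775 CPM, and lowest in IL6Myc-3, at 142 to 150 CPM. The part of that list in the Sirpa levels was not tested. Siglecg, the receptor gene for CD24 in mice, was below the filter at 0.0971 to 0.532 CPM, and the CD200 receptor genes Cd200r1 and Cd200r4 had 0 counts in all libraries. Calr, which encodes the "eat me" signal calreticulin, and Qpctl, which encodes the enzyme that modifies CD47 for SIRP alpha binding, were not called. Qpctl was at 26.5 to 45.5 CPM.

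Of the 16 genes of phosphatidylserine exposure and recognition, 10 were tested and 8 differed (80.0%, where 32.2% of all genes tested did). In IL6Myc-1, the line without Mfge8 counts, 5 of them were called lower and 0 higher, where 8.11% and 4.39% of all genes tested were. Ano6, a lipid scramblase gene, was at 1.19 ± 0.2 CPM in IL6Myc-1 (SD, n = 3), against 6.77 to 12.6 CPM in the other lines (a log2 difference of -2.94 ± 0.13 SE with an edgeR adjusted p = 5.93e-12). Anxa1 had 3 counts and Pros1 0 counts in IL6Myc-1, against means of 0.466 to 8.45 CPM for Anxa1 elsewhere.

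Integrin genes that pair to bind Mfge8 were measured in the same cells. Itgb3 was at 80.3 ± 3.58 CPM in IL6Myc-2, 11.6 ± 0.525 CPM in IL6Myc-5, 3.14 ± 0.506 CPM in IL6Myc-4, 1.58 ± 0.488 CPM in IL6Myc-3 and 0.35 ± 0.129 CPM in IL6Myc-1 (SD, n = 3 each; edgeR F-test adjusted p = 2.03e-16). Against the mean of the log2 levels of the other lines, Itgb3 was called higher in IL6Myc-2 and IL6Myc-5 and lower in IL6Myc-1 and IL6Myc-3. The low level of IL6Myc-1 pulls that mean down, so IL6Myc-5 was called higher although IL6Myc-2 was far above it. Itgb5 was at 203 ± 3.43 CPM in IL6Myc-4, against 76.5 to 121 CPM in the other lines (a log2 difference of 1.05 ± 0.03 SE with an edgeR adjusted p = 6.73e-14). Itgav had its highest level in IL6Myc-1 (41.3 ± 4.16 CPM) and its lowest in IL6Myc-2 (17.3 ± 2.7 CPM; SD, n = 3 each; edgeR F-test adjusted p = 2.34e-06).

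Of the 7 genes of the B7 and CD28 families beside Cd80 and Cd86, 4 were tested and 3 differed, each with its highest level in IL6Myc-2, the line with the most Cd80. Cd28, the receptor of CD80 and CD86, was at 217 ± 5.75 CPM in IL6Myc-2, 118 ± 3.49 CPM in IL6Myc-1, 103 ± 1.15 CPM in IL6Myc-3, 61.9 ± 2.02 CPM in IL6Myc-4 and 28.4 ± 2.27 CPM in IL6Myc-5 (SD, n = 3 each; edgeR F-test adjusted p = 1.55e-16). Ctla4, their inhibitory receptor, was at 6.77 ± 1.28 CPM in IL6Myc-2 (SD, n = 3), against 0.802 to 1.63 CPM (a log2 difference of 2.56 ± 0.16 SE with an edgeR adjusted p = 5.49e-10). Icosl, the ligand of ICOS, was at 7.32 ± 0.159 CPM in IL6Myc-2 (SD, n = 3), against 0.655 to 1.69 CPM (a log2 difference of 3.0 ± 0.16 SE with an edgeR adjusted p = 7.6e-11). Both CD28 and CTLA-4 are usually T cell genes, and T cell markers were uneven in these lines. Cd3e was at or below 0.0488 CPM in every line, and Cd8a at or below 0.0519 CPM. Cd3d was highest in IL6Myc-2, at 7.61 CPM against 0.0954 to 3.42 CPM in the other lines. Cd3g was at 10.8 CPM in IL6Myc-2 against 1.43 to 21.98 CPM, and Cd4 at 2.77 CPM against 0.231 to 2.92 CPM. The summed T and NK cell list was highest in IL6Myc-4, at 41.6 to 44.3 CPM in its libraries. It was 20.1 to 21.9 CPM in those of IL6Myc-2 and 3.51 to 16.6 CPM in those of the remaining lines. Gzmb, Klrb1c and Ncr1 had 0 counts throughout. The part of that list in the Cd28 and Ctla4 levels was not tested.

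Among 10 genes that regulate PD-L1 or, as Pdcd1 does, encode its receptor, 8 were tested and 4 differed. All 4 were called higher in IL6Myc-2, where 8.6% of all genes tested were and where Cd274 was also highest under TMM. On plain library totals 2 of these calls were kept, and those of Irf1 and Pdcd1 were lost. The transcription factor gene Irf1, which acts on the PD-L1 promoter in response to interferon gamma, was at 106 ± 1.15 CPM in IL6Myc-2 (SD, n = 3), against 35.9 to 62.3 CPM in the other lines (a log2 difference of 1.13 ± 0.03 SE with an edgeR adjusted p = 4.18e-14). The receptor gene Pdcd1 was low, from 3.17 ± 0.248 CPM in IL6Myc-1 down to 0.148 ± 0.049 CPM in IL6Myc-3 (SD, n = 3 each; edgeR F-test adjusted p = 3.93e-09). Pdcd1 was called higher in IL6Myc-1, where Cd274 was lowest, and in IL6Myc-5 as well as in IL6Myc-2. Its log2 differences there, from a mean log2 level of the other lines that low lines pull down, were 2.53, 1.93 and 1.12. Cmtm6, which protects PD-L1 from degradation, was not called, at 52.0 to 77.6 CPM.

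Of the 9 TNF family costimulation genes, 3 were tested and 2 differed (66.7%, where 32.2% of all genes tested did). Tnfsf4, which encodes OX40 ligand, was at 5.04 ± 0.596 CPM in IL6Myc-1 (SD, n = 3), against 0.112 to 0.61 CPM in the other lines. It passed the filter only through IL6Myc-1, so no test is given. Of the 14 genes of other checkpoints, 9 were tested and 6 differed (66.7%, where 32.2% of all genes tested did). Of the 6, 4 were called higher in IL6Myc-4, where 5.28% of all genes tested were. These 4 include Cd244a, which passed the filter only through IL6Myc-4 and had to differ. Lgals1, the galectin-1 gene, was at 8.67 ± 0.26 CPM in IL6Myc-4 (SD, n = 3), against 0.712 to 2.61 CPM (a log2 difference of 2.46 ± 0.11 SE with an edgeR adjusted p = 5.33e-12). The galectin-9 receptor gene Havcr2 was below the filter, at 0.0508 to 0.163 CPM.

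Of the 23 genes of TGF beta signalling, 16 were tested and 7 differed (43.8%, where 32.2% of all genes tested did). The 7 include Eng, which passed the filter only through IL6Myc-4 and had to differ, so nothing is read from this share. Tgfb2, another ligand gene, averaged 34.1 ± 1.41 CPM in IL6Myc-1, 34.4 ± 2.73 CPM in IL6Myc-4, 19.02 ± 0.186 CPM in IL6Myc-3, 8.74 ± 0.76 CPM in IL6Myc-5, and in IL6Myc-2 7.01 ± 0.237 CPM (SD, n = 3 each; edgeR F-test adjusted p = 5.97e-14). IL6Myc-1, the line with the least Tgfb1, was thus among the lines with the most Tgfb2. The receptor gene Tgfbr2 was at 30.7 ± 0.515 CPM in IL6Myc-1 (SD, n = 3), against 10.3 to 16.9 CPM (a log2 difference of 1.09 ± 0.07 SE with an edgeR adjusted p = 2.85e-10). Tgfbr1 was called higher in IL6Myc-4, at 28.5 ± 2.35 CPM (SD, n = 3) against 7.46 to 15.1 CPM. Ltbp3, which encodes a binding protein of latent TGF beta, was called lower in IL6Myc-1, at 0.587 ± 0.0743 CPM, and higher in IL6Myc-2, at 6.44 ± 1.13 CPM (SD, n = 3 each; edgeR F-test adjusted p = 4.28e-07). The signal transducers Smad2, Smad3 and Smad4 were not called.

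**Figure D5:**
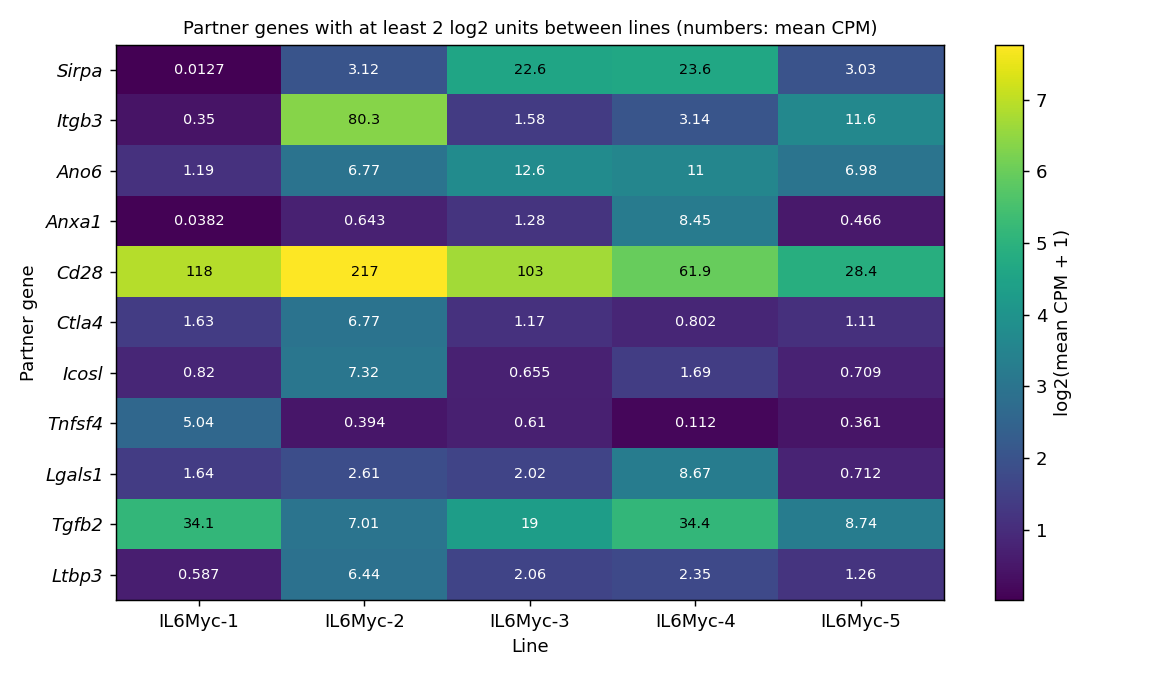
Mean level of 11 partner genes that differed among the lines by at least 2 log2 units and reached 5 CPM in a line (y axis), in the 5 IL6Myc lines (x axis). Colour is log2(mean CPM + 1) and the printed numbers are mean CPM of 3 technical replicates. Sirpa, Itgb3, Ano6, Anxa1 and Ltbp3 have their lowest value in IL6Myc-1, and Cd28, Ctla4 and Icosl their highest in IL6Myc-2.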

How the data were processed

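The 15 RNA-seq libraries (5 lines, 3 technical replicates each) were made with a TruSeq Stranded kit for total RNA, per the labels' protocols. The submitters' processing notes list Trim Galore 0.4.0, DESeq2 and the build GRCm39. Aligner, quantifier, annotation and strand setting were not given in the sources used here. What the authors deposited was a table named for TPM, but its columns sum to 19068543 to 41165599. Of the nonzero values under 1.5 in a library, 30.8% to 54.3% lay within 0.02 of 1. The deposited values were therefore taken as estimated counts and rounded. A further deposited column, the mean of the libraries, was not used. Any length correction by the quantifier would carry into these levels.

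Names were matched to mouse symbols for 99.2% of entries. The 11773 genes that reached 1 CPM in 3 or more libraries were fitted with edgeR 4.0.16 in R 4.3.3 (quasi-likelihood, TMM factors 0.848 to 1.08, line as the only factor), tested on simulated data first. Calls needed an adjusted p under 0.05 (Benjamini-Hochberg, over all genes) and 1 log2 unit. Each line was set against the mean of the log2 levels of the other 4 lines, which a line near the floor pulls down. Median biological coefficient of variation was 0.0639. Within lines no library pair held identical values, and all differed by more than sampling noise. Limits of 3 counts cover counting error only. Transcript lengths came from GENCODE M21. The genes and lists were chosen with earlier results of these data known. The rule for named genes took the 10 ligand genes, their direct receptors, partner genes called with 2 log2 units and 5 CPM, and the 3 most similar genes per ligand. The text names further partner genes, chosen after their values were seen. Some genes that the rule or the lists hold are counted but not reported here by name. Alternatives were DESeq2 1.42.0, limma 3.58.1 on log2(CPM + 1), other scalings and filters, a replicate block and leaving out each library. Marker lists covered plasma cells, macrophages, dendritic, T and NK, mature B, stromal and erythroid cells. Mature B cell markers summed to 58.4 to 223 CPM, mostly Ms4a1, stromal ones to 16.7 to 30.03 CPM and erythroid ones to at most 0.744 CPM.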

Additional observations from a re-analysis of the deposited data

How the results depend on the processing

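The count of genes differing among the lines was 3788, and that of partner genes 33. With each library left out in turn they were 3650 to 3787 and 31 to 34, and on DESeq2 size factors, in DESeq2 itself and with the replicate block 33 partner genes were again called. The replicate block was not treated as a pairing, since same-numbered libraries of different lines did not deviate together (r from -0.0841 to 0.11). Plain library totals, an alternative added after the data were seen, gave 35 partner genes, 32 of them shared. Leaving out a library of IL6Myc-1 ended the call of Tnfsf4, and of IL6Myc-4 that of Eng. Furin was lost without IL6Myc-1 replicate 1 or IL6Myc-2 replicate 3, with no filter, in limma and on plain totals, and Siglec1 in limma. Requiring 5 CPM in 3 libraries left fewer genes to test, with 2449 genes and 21 partner genes differing, and with 873, 844, 480, 645 and 495 genes called in IL6Myc-1 to IL6Myc-5 against the mean of the other lines, where the main counts were 1472, 1493, 901, 1136 and 940. With no filter, which adds low genes, these were 2225, 2413, 1548, 1752 and 1489. Limma on log2(CPM + 1) gave 924, 935, 426, 669 and 491, with model and scale changed together, and the cause was not tested. Of 32 neighbouring pairs of lines in the 8 ligand genes tested, 20 had libraries that did not overlap (20 to 23 with a library left out, which by construction can hardly lower the count). The same share over all genes tested was not worked out, so nothing is read from this count. Of 50 mean levels, 1 moved by more than its SD on DESeq2 size factors and 19 on plain totals. Depth limits Pdcd1lg2 and Cd86, whose lines could not be ordered, and replicates were technical.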
